A study of Homo sapiens with 2 samples.

Results

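The HOX genes were followed in colon organoids made from human induced pluripotent stem cells, with and without inflammatory cytokines. A list of 38 HOX genes was matched by symbol among the 36601 genes of the feature files, with no antisense RNA included; 39 HOX symbols are listed there, and the other one is not analysed here. Both cultures were derived from the established line 1383D6 by activin A (100 ng/mL, to day 3), FGF2 (100 ng/mL, to day 7), embedding in Matrigel, and then EGF (20 ng/mL), forskolin (30 µM), PD98059 (20 µM), 5-aza-2'-deoxycytidine (5 µM) and a further compound at 0.5 µM whose name is cut short in the labels. The culture called CNT received no cytokines, and the culture called 3CK received IFN-γ, TNF-α and IL-1β over 8 days at doses that the labels do not state. Each group is 1 library of 1 cell line, so no test between CNT and 3CK was possible, and the 95% intervals given here cover the error of counting alone.

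HOX genes encode homeodomain transcription factors that give cells an address along the head-to-tail axis. They lie in 4 clusters, HOXA to HOXD, and are numbered by paralog group: low numbers are switched on early and toward the head, and high numbers late and toward the tail. In the gut, retinoic acid, FGF and WNT signals set the pattern, caudal-type factors such as CDX2 act on it, and the highest paralog groups mark the hindgut and the cloaca, largely in the mesenchyme around the epithelium. HOX proteins bind DNA together with PBX and MEIS cofactors, and Polycomb and trithorax proteins keep the clusters silent or active.

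The files hold unique molecular identifier (UMI) counts, 1 per captured transcript molecule. After filters 2487 of 3257 CNT barcodes and 1398 of 1641 3CK barcodes remained, and the libraries shared 0 barcodes. Epithelial cells were those with at least 2 EPCAM UMIs per 10000, which gave 1660 CNT cells (76172762 UMIs) and 1016 3CK cells (70107004 UMIs). Mesenchymal cells had at least 5 UMIs per 10000 of COL1A1, COL1A2 and COL3A1 together and under 1 of EPCAM, which gave 574 CNT cells (19648485 UMIs) and 124 3CK cells (9115881 UMIs). The remaining 253 CNT and 258 3CK cells met neither rule. The labels call both samples colon epithelial cells, yet 23.1% of CNT and 8.87% of 3CK cells were mesenchymal by this rule. Depth differed between these cells: 263 of the 574 in CNT and 18 of the 124 in 3CK held under 10000 UMIs, where few collagen UMIs meet the rule. Markers outside the rule separated the classes: CDH1 stood at 138 and 251 CPM (UMIs per 1000000 UMIs of the class) in CNT and 3CK epithelium against 14.9 and 7.57 CPM in mesenchyme, and DCN at 1210 and 1208 CPM in mesenchyme against 51.2 and 9.57 CPM in epithelium. Keratins were not specific, and the 10 epithelial markers summed to 8993 and 11714 CPM in mesenchyme.

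The 38 members lie on 4 chromosomes of GRCh38: HOXA on chromosome 7 (27100354 to 27200091), HOXB on chromosome 17 (48528526 to 48728750), HOXC on chromosome 12 (53938831 to 54056030) and HOXD on chromosome 2 (176092721 to 176190907). Of the 38 gene models, 22 overlap another listed gene on the same strand, for example HOXA3 with HOXA4, HOXA5 and HOXA6, and HOXB3 with HOXB4, HOXB5 and HOXB6. No source used here states how such reads were shared out, so single levels within these overlaps are uncertain. RefSeq promoter sequences (GRCh38.p14) matched 20 of the 38 members. Of these, 3 are shown here, each the 250 bases before the start site: HOXA3 because, of the members counted in CNT, its epithelial and mesenchymal levels lay closest, and HOXA13 and HOXD13 because they mark the tail end of their clusters. They come from the minus strand of chr7:27152584-27152833, the minus strand of chr7:27200092-27200341 and the plus strand of chr2:176092471-176092720, upstream of the annotated genes. Capitals mark TTTATG, a CDX-type motif, on either strand.
HOXA3: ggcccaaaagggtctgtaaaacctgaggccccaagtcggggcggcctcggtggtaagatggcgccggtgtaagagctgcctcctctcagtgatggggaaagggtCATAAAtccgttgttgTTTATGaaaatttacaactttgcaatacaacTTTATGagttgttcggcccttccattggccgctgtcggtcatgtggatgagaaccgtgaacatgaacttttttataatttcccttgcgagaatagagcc
HOXA13: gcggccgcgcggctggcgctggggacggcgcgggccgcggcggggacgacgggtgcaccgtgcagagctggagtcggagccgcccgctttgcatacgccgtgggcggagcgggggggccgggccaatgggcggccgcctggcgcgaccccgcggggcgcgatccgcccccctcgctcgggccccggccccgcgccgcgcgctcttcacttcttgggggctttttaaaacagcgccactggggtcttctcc
HOXD13: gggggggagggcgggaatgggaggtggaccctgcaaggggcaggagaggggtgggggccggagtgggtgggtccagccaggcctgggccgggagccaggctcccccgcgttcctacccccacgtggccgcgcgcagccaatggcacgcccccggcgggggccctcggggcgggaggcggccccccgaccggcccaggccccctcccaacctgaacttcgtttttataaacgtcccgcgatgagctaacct
The HOXA3 window held 3 matches and the other windows none. TTTATG occurred in 3 of the 20 member promoters (15%) and in 10.0% of 27305 promoters of the same length. A PBX-HOX-type motif, TGATNNAT, searched on both strands, occurred in 3 of 20 (15%) and in 6.69% of all. HOXA3 and HOXA13 also differ in base composition, with 48.8% and 78% G and C; the median was 59% over the 20 member promoters and 58% over all promoters.

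HOX RNA lay mainly in the mesenchyme. Summed over the 38 members, it reached 356 CPM (348 to 364) in CNT and 447 CPM (433 to 461) in 3CK mesenchyme, against 44.3 CPM (42.8 to 45.8) and 34.1 CPM (32.7 to 35.5) in epithelium. Mesenchymal cells therefore held 61.6% of the HOX UMIs of the CNT library. In 3CK they held 42.3%, and another 32.9% lay in cells of neither class, where the summed level was 251 CPM. Of the 38 members, 28 reached 1 CPM in CNT mesenchyme and 27 in 3CK mesenchyme, against 12 and 8 in epithelium. In these 3' libraries each captured transcript end gives 1 UMI, so levels were compared between genes without division by length.

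In the mesenchyme the highest members came from the middle and the lower end of the series. HOXB7, a trunk-level gene, was the highest, at 40.9 CPM (38.1 to 43.8, 804 UMIs) in CNT and 57.9 CPM (53.1 to 63.1, 528 UMIs) in 3CK. HOXC8, which patterns the thoracic region, followed at 34.0 CPM (31.5 to 36.7) and 43.9 CPM (39.7 to 48.4). HOXB2, a gene of the anterior groups known for its role in the hindbrain, stood at 30.2 CPM (27.8 to 32.8) and 42.8 CPM (38.6 to 47.2). The intervals of HOXC8 and HOXB2 overlapped in both libraries, so their order is not resolved at this depth.

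Tail-end genes were present in the mesenchyme at several levels. HOXD11 and HOXD10, posterior genes best known from limb and kidney, stood at 25.8 and 23.4 CPM in CNT and at 31.5 and 26.1 CPM in 3CK. HOXA10 and HOXA11, genes of the developing reproductive tract, stood at 13.7 and 8.55 CPM in CNT and at 14.5 and 6.47 CPM in 3CK. The terminal group was led by HOXB13, a marker of the distal hindgut and prostate, at 11.6 and 11.3 CPM. HOXA13, needed for hindgut and cloaca development, stood at 7.33 CPM in the CNT cells and at 3.73 CPM in the 3CK cells, and its partner HOXD13 at 1.88 and 3.62 CPM. HOXC13, a gene of hair and nail, stayed under 1 CPM in both classes of both libraries.

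The other members above 1 CPM in mesenchyme formed a middle range. HOXC9, HOXC6, HOXB8, HOXB3, HOXB6, HOXB9 and HOXB5, trunk-level genes apart from the more anterior HOXB3, lay between 11.5 and 36.2 CPM over both libraries. HOXB4, a gene also known from blood stem cells, stood at 9.21 and 14.5 CPM. HOXD8, HOXA9, HOXD9, HOXD3, HOXA3, HOXA5, HOXA7, HOXC4 and HOXA4 lay between 1.43 and 10.3 CPM. HOXC10 was at 1.12 and 0.987 CPM. The order therefore did not follow paralog number: neighbours within a cluster, such as HOXA9 at 5.45 CPM and HOXA10 at 13.7 CPM in CNT, differed by more than their counting intervals, although these gene models overlap.

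In all, 10 of the 38 members stayed under 1 CPM in both classes of both libraries. HOXD12 had 0 UMIs in both, which allows up to 0.0394 CPM in CNT epithelium and 0.153 CPM in CNT mesenchyme (3 UMIs of the class total). HOXC12 had 4 UMIs in CNT and 1 in 3CK over all kept cells, and HOXB1, a hindbrain gene, had 7 and 3. HOXA6, HOXA2, HOXC11, HOXD4, HOXD1, HOXC5 and HOXC13 were the rest, with HOXC13 the highest of the 10 at 0.967 CPM in CNT mesenchyme. Among them HOXD1, the anterior end of its cluster, was no lower in epithelium than in mesenchyme, with 36 UMIs (0.473 CPM) in CNT epithelium against 9 UMIs (0.458 CPM) in mesenchyme, and 35 (0.499 CPM) against 2 (0.219 CPM) in 3CK; its intervals overlap.

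**Figure D1:**
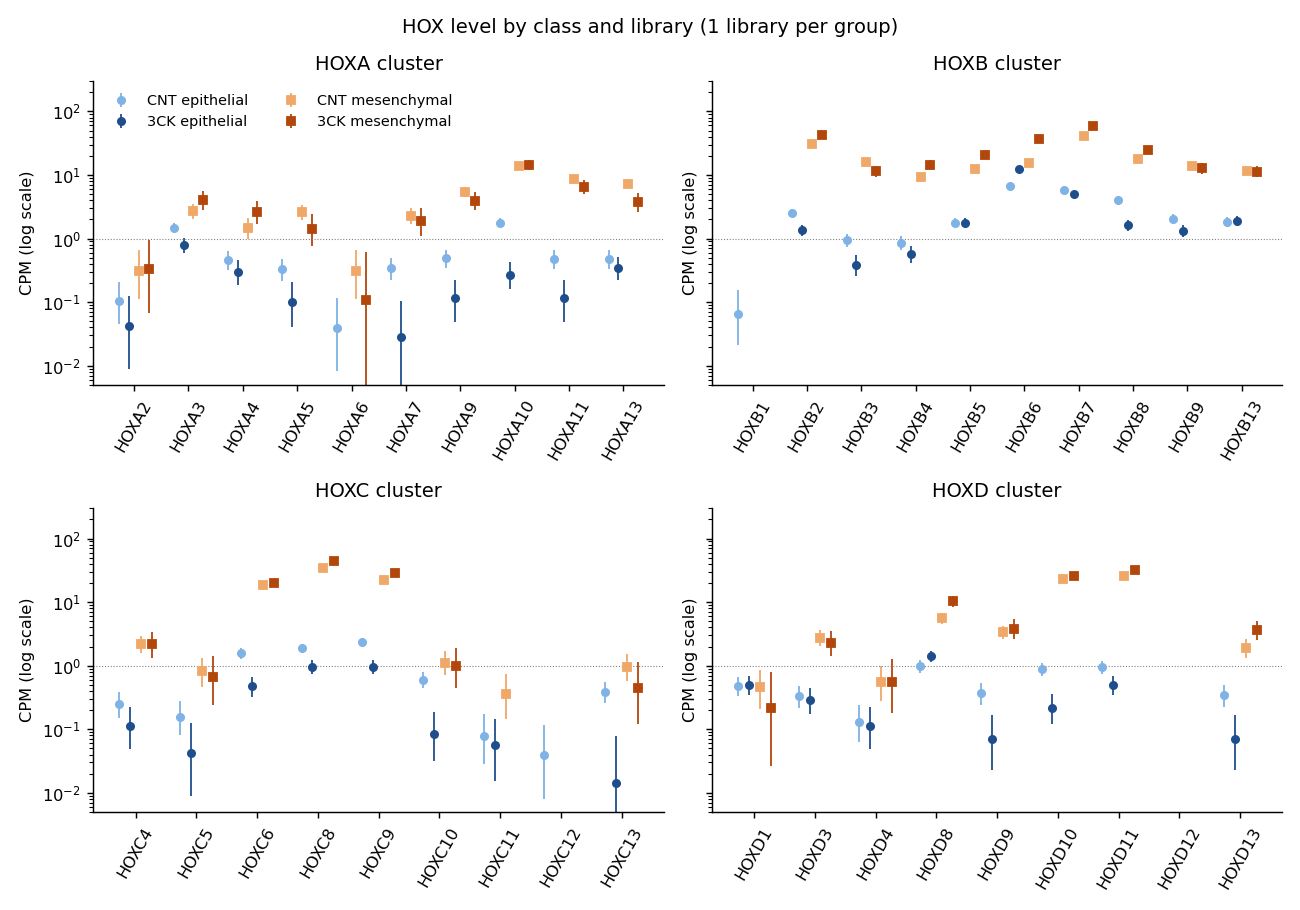
Level of each HOX member in CPM on a log axis, by cluster from low to high paralog number, in CNT and 3CK epithelial cells (circles) and mesenchymal cells (squares). Bars are exact Poisson 95% intervals, cut at the foot of the axis, and classes with 0 UMIs are not drawn. Squares lie above circles for most members, and HOXB6 is the epithelial member that passes 10 CPM, at 12.2 CPM in 3CK.

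In the epithelium 3 neighbours of the HOXB cluster led. HOXB6 stood at 6.81 CPM (6.24 to 7.43, 519 UMIs) in CNT and 12.2 CPM (11.4 to 13.1, 858 UMIs) in 3CK. HOXB7 stood at 5.84 CPM (5.31 to 6.41) and 4.99 CPM (4.48 to 5.54). HOXB8 stood at 3.96 CPM (3.53 to 4.44) and 1.61 CPM (1.33 to 1.94). No other member passed 2.5 CPM in either library. The terminal genes were low: HOXB13 stood at 1.82 CPM (1.53 to 2.15) and 1.91 CPM (1.60 to 2.26), and HOXA13 and HOXD13 stayed under 0.5 CPM.

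Mesenchyme against epithelium was compared within each library. Members were counted when their mean over both arms was at least 1 CPM, and called when the levels differed at least 2-fold. In CNT 25 of 26 members were higher in mesenchyme, where 24.4% of 17000 genes were higher, and 0 were lower, where 14.3% of genes were lower; with TMM factors, which rescale the totals, 16.3% of genes were higher and 19.6% lower. In 3CK 25 of 25 were higher (17.8% of 16242 genes) and 0 were lower (15.3%). Only 12 of the counted members in CNT and 8 in 3CK reached 1 CPM in epithelium. The others were counted through their mesenchymal level and could not have been called lower. Of the 12 in CNT, HOXA3 alone missed 2-fold, and all 8 in 3CK were higher in mesenchyme. The median log2 ratio of all counted members was 3.1 in CNT and 4.67 in 3CK, against 0.30 and 0.07 over all genes. Within the mesenchymal class such ratios cannot tell more RNA per cell from more cells with the RNA.

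The size of the gap differed among members. It was largest for the posterior HOXD genes, HOXD11 with a log2 ratio of 4.75 (4.39 to 5.13) in CNT and 5.98 (5.47 to 6.53) in 3CK, and HOXD10 with 4.73 (4.36 to 5.12) and 6.93 (6.18 to 7.79). HOXC8 followed in CNT at 4.19, and HOXA11 in 3CK at 5.83. It was smallest for HOXA3, a gene of the pharyngeal arches, with 0.88 (0.38 to 1.36) in CNT and 2.37 (1.73 to 3.00) in 3CK, and for HOXB6, with 1.17 (0.96 to 1.38) and 1.56 (1.38 to 1.75). HOXB8 was the next smallest in CNT at 2.16, and HOXB13 in 3CK at 2.56. HOXA3 was the member of the 26 that missed 2-fold in CNT.

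Epithelial levels were also set against those of mesenchymal transcripts found in the same cells, since RNA released from other cells or 2 cells in 1 droplet could add to them. The 3 collagens of the rule stood in epithelium at 3.86% to 4.50% of their mesenchymal level in CNT and at 1.42% to 3.53% in 3CK. The other 8 mesenchymal markers ranged from 3.36% (TWIST2) to 28.3% (VIM) in CNT and from 0.792% (DCN) to 16.3% (VIM) in 3CK. Measured the same way, HOXD11 stood at 3.71% and 1.59%, and HOXD10 at 3.77% and 0.820%, at or below the highest collagen in both libraries. HOXB6 stood at 44.3% and 33.8%, HOXB13 at 15.7% and 16.9%, and HOXA3 at 54.5% and 19.3%. The counting interval lay above all 3 collagens for 21 of 26 members in CNT and for 11 of 25 in 3CK, and 2 and 12 members stood at or below the highest collagen. The collagens choose the mesenchymal class, so the rule itself can lower their percents, and this count does not measure carried RNA. No count was made against the other 8 markers. The median member stood at 11.7% in CNT and 3.94% in 3CK, within the range of those markers. The part of carried RNA in these epithelial levels was not tested.

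**Figure D2:**
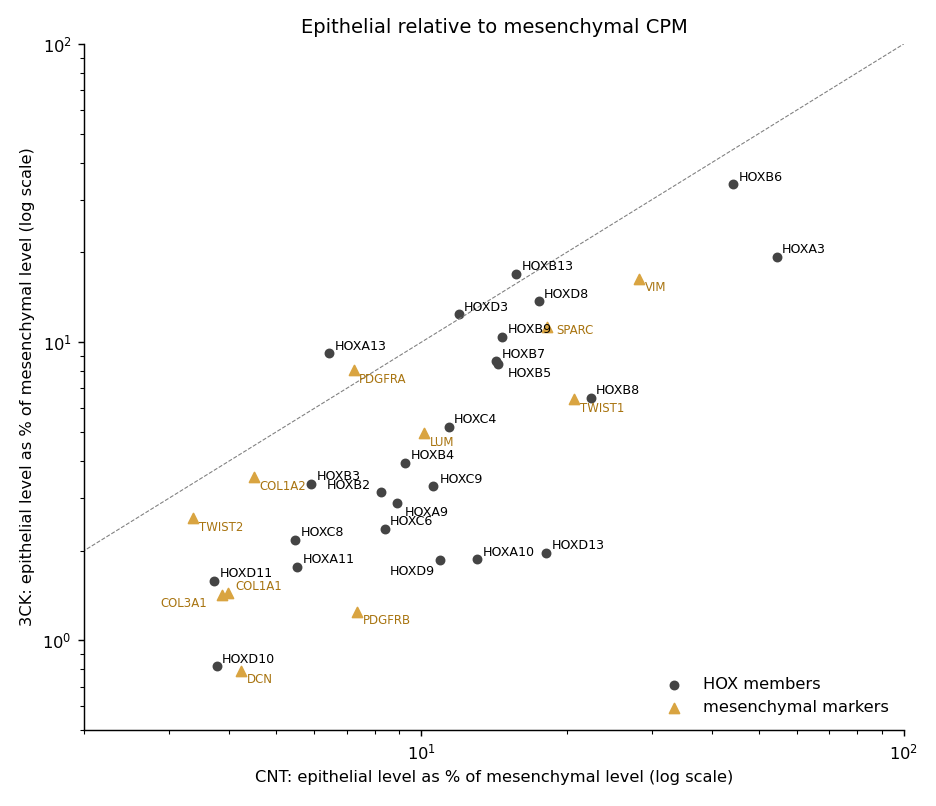
Epithelial CPM as a percent of mesenchymal CPM, CNT on the x axis and 3CK on the y axis, both log scales, for HOX members counted in both libraries (circles) and 11 mesenchymal markers (triangles); the dashed line marks equal percents. HOXD10 lies below the collagens on both axes, and HOXD11 lies below them in CNT and among them in 3CK. HOXB6 and HOXA3 lie farthest to the upper right, at 44.3% and 54.5% in CNT.

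The makeup of HOX RNA by paralog group differed between the classes. The 16 members of groups 9 to 13 gave 39.2% (38.1 to 40.4) of the HOX UMIs of CNT mesenchyme and 29.5% (28.0 to 31.1) of those of CNT epithelium. In 3CK they gave 33.2% (31.7 to 34.6) in mesenchyme and 17.7% (16.2 to 19.3) in epithelium. The 15 members of groups 4 to 8 gave 46.1% and 57.2% in CNT mesenchyme and epithelium, and 53.1% and 72.5% in 3CK. Groups 1 to 3 gave between 9.79% and 14.7% in each class. In 3CK epithelium the paralog 6 genes, nearly all HOXB6, alone gave 37.3%. By cluster, HOXB supplied the largest share in each class, from 47.0% in CNT mesenchyme to 76.6% in 3CK epithelium. HOXC gave 16.4% in CNT and 7.91% in 3CK epithelium, against 22.6% and 21.7% in mesenchyme.

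**Figure D3:**
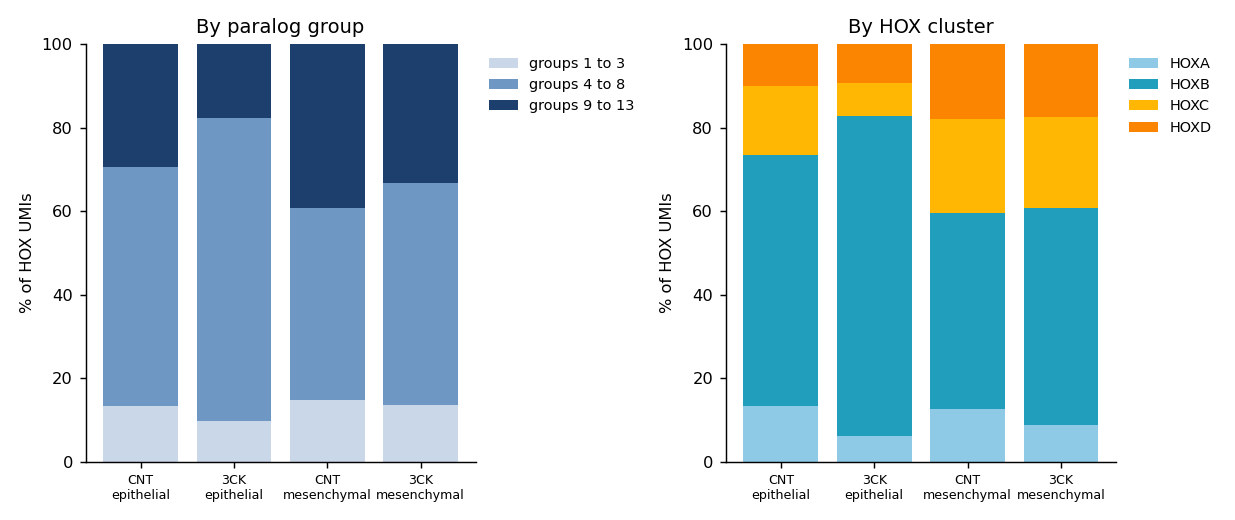
Percent of HOX UMIs from each paralog group range (left) and each HOX cluster (right), 1 stacked bar for each class of each library. The posterior groups 9 to 13 take 39.2% in CNT mesenchyme and 17.7% in 3CK epithelium, where HOXB takes 76.6%.

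The comparison of 3CK with CNT asks how these levels stood after 8 days of cytokines. In epithelium 13 members had a mean of at least 1 CPM; 0 were at least 2-fold higher in 3CK, where 7.93% of 16134 genes were higher, and 4 were at least 2-fold lower, where 10.8% of genes were lower. The 4 were HOXA10 at 1.79 against 0.271 CPM, with a log2 ratio of -2.72 (-3.50 to -2.02), HOXC6 at 1.56 against 0.471 CPM (-1.73, -2.33 to -1.16), HOXB8 at 3.96 against 1.61 CPM (-1.30) and HOXC9 at 2.35 against 0.956 CPM (-1.30). HOXA10, HOXC6 and HOXC9 lay under 1 CPM in 3CK, so they were counted through their CNT level and could not have been called higher. The means of HOXA10 and HOXC6, 1.03 and 1.02 CPM, were just over the limit. HOXB6 had the largest ratio upward, 0.84 (0.69 to 1.00), short of 2-fold. HOXD8, at 0.971 CPM in CNT against 1.41 CPM in 3CK, had 0.54 (0.09 to 0.99), and HOXB13 had 0.07 (-0.29 to 0.42). HOXB5 and HOXB7 had -0.04 and -0.23, and HOXB9, HOXB2, HOXA3 and HOXC8 ranged from -0.63 to -0.96. The median ratio was -0.90 over the 13 members and 0.02 over all genes.

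Mesenchymal transcripts were also lower in 3CK epithelium, and their part in the HOX decreases was not tested. The summed level of the 11 mesenchymal markers in epithelial cells was 1981 CPM in CNT and 1029 CPM in 3CK, with 0 of the 11 at 0 UMIs; VIM alone gave 1063 and 747 CPM. In mesenchyme the same markers summed to 16473 and 10976 CPM, while HOX RNA summed to 356 and 447 CPM. At least 5 collagen UMIs per 10000 were carried by 497 CNT but 49 3CK epithelial cells. These cells were shallow, with medians of 1087 and 1561 UMIs, so very few collagen UMIs could meet that limit. When epithelial cells were limited to those with fewer than 2 collagen UMIs per 10000 (1043 CNT and 931 3CK cells), 9 members could be counted. Then 2 were higher in 3CK, HOXB6 with 1.23 and HOXB5 with 1.27 (8.37% of genes higher), and 0 were lower (10.8% lower). In those cells HOXC9 moved to -0.03 and HOXB8 to -0.91, while HOXA10 and HOXC6 had -2.23 and -1.57; apart from HOXB8 these were then under a mean of 1 CPM. Summed HOX RNA in these limited cells was 28.2 CPM (26.9 to 29.5) in CNT and 32.8 CPM (31.4 to 34.2) in 3CK, so the lower 3CK total of the whole class was not seen there.

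In mesenchyme 28 members were counted and 1, HOXB6, was at least 2-fold higher in 3CK (5.45% of 16488 genes), while 0 were lower (14.5%). HOXB6 stood at 15.4 CPM (13.7 to 17.2) in CNT and 36.2 CPM (32.4 to 40.3) in 3CK, a log2 ratio of 1.24 (1.01 to 1.47). HOXD13 and HOXD8 came next at 0.94 (0.22 to 1.66) and 0.89 (0.48 to 1.31). At the other end stood HOXA13 at -0.97 (-1.56 to -0.43), HOXA5, a gene of gut and lung mesenchyme, at -0.86 (-1.87 to 0.04) and HOXA9 at -0.46 (-1.05 to 0.09). Of the terminal genes none passed 2-fold, and HOXB13 had -0.04 (-0.39 to 0.30). With each cell weighted equally HOXA13 had -0.13 and HOXD13 1.56. The median was 0.18 over the 28 members and -0.19 over all genes.

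The choice of mesenchymal cells touches this comparison, since the collagens that define the class were themselves lower in 3CK, COL1A1 at 906 CPM against 3010 CPM in CNT, and 32.9% of 3CK HOX UMIs lay outside both classes. Chosen without collagens, by other mesenchymal markers, the class held 525 CNT and 174 3CK cells. HOXB6 then had 1.41, HOXD8 1.14 and HOXA4 1.03, so 3 of 28 members were at least 2-fold higher (6.22% of genes), and HOXA13, at -1.09, was lower (14.4% of genes). With TMM factors, which move the median of all genes by 0.18, 4 members were at least 2-fold higher, where 7.12% of genes were higher and 10.7% lower.

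**Figure D4:**
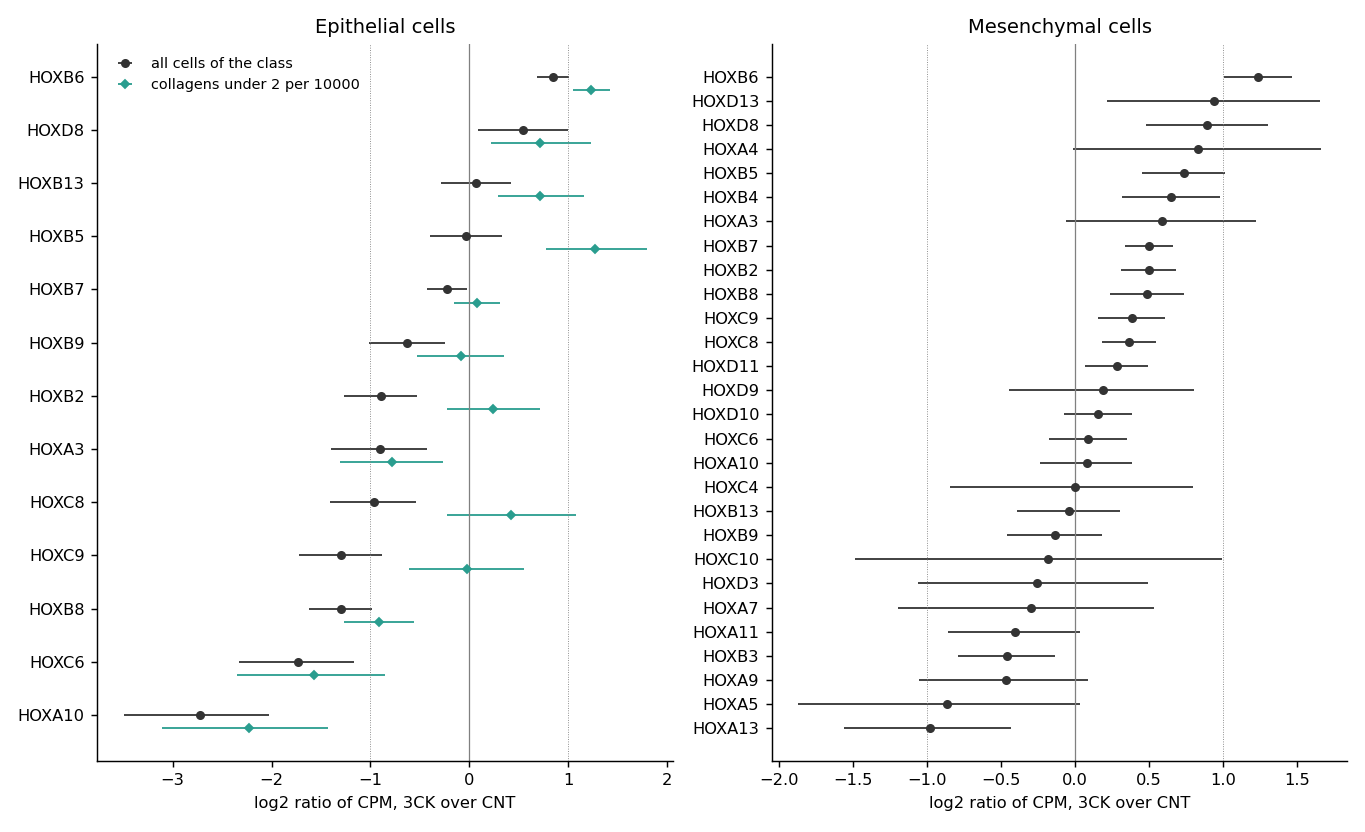
Log2 ratio of 3CK over CNT CPM for each member with a mean of at least 1 CPM, in epithelial cells (left) and mesenchymal cells (right), with 95% counting intervals; dotted lines mark 2-fold. Diamonds repeat the epithelial ratio in cells with few collagen UMIs, where HOXB6 lies at 1.23 and HOXC9 near 0.

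Shares of cells were compared at an equal depth of 5000 UMIs per cell, drawn without replacement. Shallower cells were left out, 598 CNT and 240 3CK epithelial cells and 254 and 17 mesenchymal cells. A UMI of any of the 38 members was found in 249 of 320 CNT mesenchymal cells (77.8%) and 90 of 107 3CK mesenchymal cells (84.1%). In epithelium it was found in 117 of 1062 CNT cells (11.0%) and 91 of 776 3CK cells (11.7%). Without thinning the shares were 61.7% and 92.7% in mesenchyme and 31.6% and 37.5% in epithelium, at median depths of 23450.5, 65363, 37785 and 72198 UMIs. At least 2 different members were found in 47.8% and 58.9% of thinned mesenchymal cells, and in 2.82% and 1.42% of epithelial cells. HOXB6 was found in 1.88% (1.15 to 2.89) of CNT and 3.99% (2.73 to 5.62) of 3CK epithelial cells, and in 7.81% (5.12 to 11.3) and 13.1% (7.34 to 21.0) of mesenchymal cells; its unthinned shares were 9.10%, 13.3%, 26.3% and 62.9%. HOXB7 was found in 1.98% and 2.19% of epithelial cells and in 16.9% and 22.4% of mesenchymal cells; its unthinned shares were 11.6%, 13.2%, 43.9% and 78.2%.

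Epithelial HOX RNA sat in few cells. Among cells with at least 10000 UMIs, 38 of 1013 CNT epithelial cells (3.75%) and 29 of 730 3CK epithelial cells (3.97%) held 50% of the HOX UMIs. In mesenchyme it took 71 of 311 (22.8%) and 27 of 106 (25.5%). HOXB6 was more concentrated, with 50% of its epithelial UMIs in 19 CNT and 12 3CK cells and up to 36 and 96 UMIs in 1 cell. CDX2, the intestinal factor upstream of HOX genes, was spread over more cells: 206 CNT and 116 3CK epithelial cells held 50% of its UMIs. Without the 5 epithelial cells with the most HOXB6 in each library, the 3CK over CNT log2 ratio of HOXB6 was 0.63 (0.45 to 0.82), and with each cell weighted equally it was 0.25.

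Epithelial cells with at least 2 HOXB6 UMIs carried other members too. This choice of cells was made after the values were seen, and it uses HOXB6 itself, so HOXB6 is left out of what follows. Over cells with at least 10000 UMIs, the other 37 members summed to 171 CPM (162 to 180) in the 76 such CNT cells and 15.6 CPM (14.6 to 16.6) in the 877 cells with 0 HOXB6 UMIs. In 3CK the values were 82.6 CPM (77.1 to 88.3) in 84 cells and 8.78 CPM (8.02 to 9.60) in 604 cells. Mesenchymal cells chosen in the same way, 68 in CNT and 58 in 3CK, stood at 378 CPM (363 to 394) and 439 CPM (422 to 456). The HOXB6 cells carried EPCAM, 851 CPM in CNT against 892 CPM in 3CK, compared with 22.6 and 16.2 CPM in the mesenchymal cells with HOXB6, and CDX2 stood at 80.0 and 92.3 CPM in them. EPCAM itself defines both classes, so its gap between them was fixed by the rule and says nothing further about these cells.

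The members found with HOXB6 were set against mesenchymal cells that also had at least 2 HOXB6 UMIs. In CNT HOXB8 stood at 26.2 CPM (22.9 to 30.0) in the epithelial cells and 25.7 CPM (21.9 to 30.1) in the mesenchymal cells with HOXB6, and at 0.825 CPM in epithelial cells without it. HOXB7 stood at 26.0 CPM (22.6 to 29.7) against 43.4 CPM (38.3 to 49.0), and at 2.17 CPM without HOXB6. HOXB5 stood at 12.0 CPM (9.71 to 14.6) against 19.3 CPM (16.0 to 23.1), and at 0.291 CPM without. The levels of HOXB8 overlap between the classes, and those of HOXB7 and HOXB5 were lower in epithelium. HOXA3 stood at 5.01 CPM (3.59 to 6.79) in the epithelial cells against 1.82 CPM (0.906 to 3.25). Posterior HOXD genes were low, HOXD11 at 4.15 CPM against 22.1 CPM and HOXD10 at 3.30 CPM against 24.6 CPM. HOXB13 stood at 4.27 CPM in epithelial cells with HOXB6 and 1.5 CPM in those without it.

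The 3CK cells with HOXB6 carried HOXB7 at 22.0 CPM, HOXB5 at 10.7 CPM and HOXB8 at 8.37 CPM, against 1.37, 0.0911 and 0.237 CPM in epithelial cells without HOXB6 and 63.7, 22.1 and 31.9 CPM in mesenchymal cells with it. HOXB13 was at 2.14 CPM with and 1.82 CPM without HOXB6, within its counting interval, and HOXA13 at 0.195 and 0.310 CPM. In CNT the cells with HOXB6 also carried more COL1A1, 199 CPM against 86.8 CPM, and were deeper, with a median of 109056 UMIs against 66746. The 3CK cells with HOXB6 were deeper as well, with a median of 113205 UMIs against 90965. With fewer than 2 collagen UMIs per 10000, 49 CNT and 76 3CK cells were left and the other members summed to 131 and 84.1 CPM. In those CNT cells HOXB8 and HOXB7 both stood at 26.6 CPM, HOXD11 at 0.807 CPM and HOXB13 at 2.02 CPM.

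**Figure D5:**
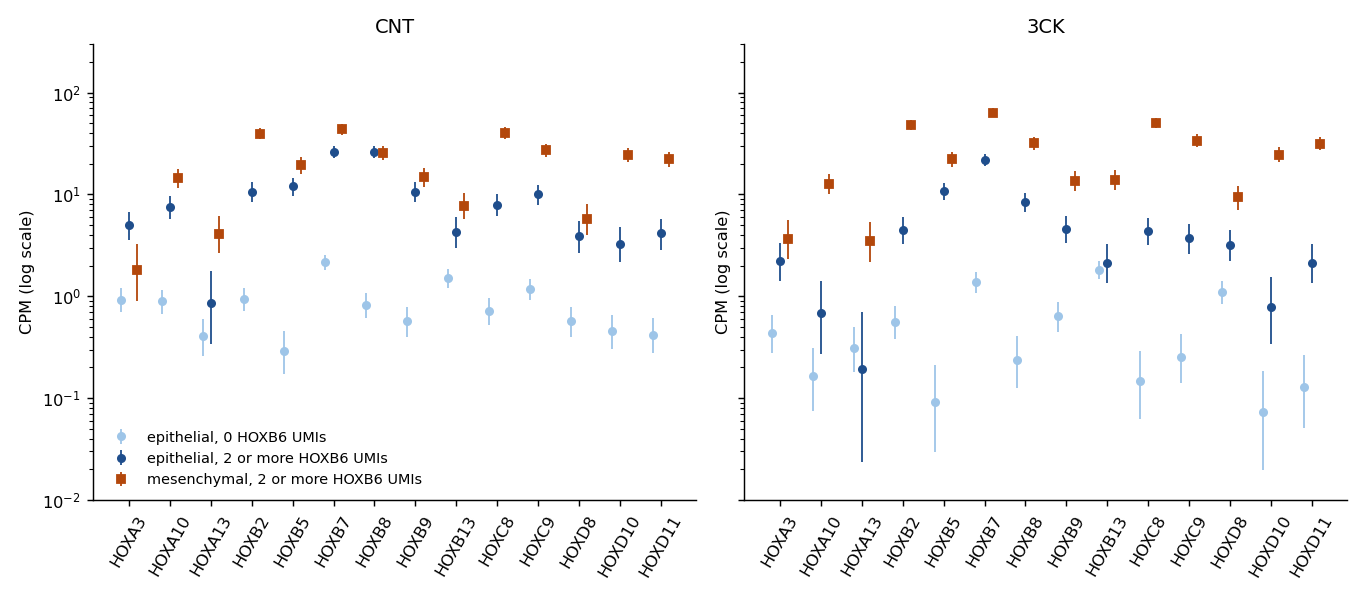
Level of 14 HOX members in CPM on a log axis in epithelial cells with 0 HOXB6 UMIs, epithelial cells with at least 2, and mesenchymal cells with at least 2, CNT on the left and 3CK on the right, over cells with at least 10000 UMIs; bars are exact Poisson 95% intervals. In CNT, HOXB8 lies at 26.2 CPM in the epithelial and 25.7 CPM in the mesenchymal cells with HOXB6, while HOXD11 lies at 4.15 and 22.1 CPM.

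HOX levels also followed TTR, a liver-type carrier protein whose RNA was abundant in much of the epithelium. In CNT the summed level was 28.3 CPM (26.7 to 29.9) in 620 epithelial cells with at least 500 TTR UMIs per 10000, 32.7 CPM (30.5 to 35.1) in 848 cells with 100 to 500, and 147 CPM (139 to 155) in 192 cells under 100. In 3CK it was 14.1 CPM (11.3 to 17.5) in 82 cells, 29.3 CPM (27.5 to 31.2) in 432 and 42.8 CPM (40.6 to 45.2) in 502. In CNT cells under 100, HOXB6 stood at 21.6 CPM, HOXB8 at 20.9, HOXB7 at 19.4 and HOXB9 at 9.48 CPM, while HOXB13 at 1.70 CPM and HOXD11 at 1.06 CPM lay between their levels in the other ranges. COL1A1 stood at 137 CPM there, against 153 CPM between 100 and 500 and 95.8 CPM above 500. The CNT cells between 100 and 500 were shallow, with a median of 1858.5 UMIs.

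TTR-low cells were 11.6% of CNT and 49.4% of 3CK epithelium, and the part of this difference in the comparison of the whole class was not tested. Within them 16 of 19 members were at least 2-fold lower in 3CK, where 16.5% of genes were lower, and 0 were higher, where 5.42% were. Some were counted through their CNT level alone and could not have been called higher. Among these were HOXA9 (2.24 CPM in CNT, 0.127 CPM in 3CK), HOXA11 (1.81 and 0.222 CPM) and HOXC10 (3.09 and 0.158 CPM). The CNT side of this count came from 192 cells. HOXB6 changed direction, from 0.84 in the whole class to -0.83 among TTR-low cells. HOXB8 had -3.04, HOXB7 -1.47 and HOXB9 -2.37, while HOXB13 and HOXD8 had 0.25 and 0.33. The same limit narrowed the gap to mesenchyme in CNT: 20 of 29 members stayed at least 2-fold higher there (11.0% of genes), HOXC10 and HOXA3 were 2-fold lower with -1.46 and -1.04 (20.3% of genes), and HOXB6 and HOXB8 turned to -0.49 and -0.24. In 3CK 25 of 25 members remained higher in mesenchyme (14.0% of genes). In both libraries, members under 1 CPM in these epithelial cells were counted through their mesenchymal level and could not have been called lower.

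The epithelium was also split by CDX2. In thinned CNT epithelium the 38 members summed to 34.1 CPM (25.8 to 44.3) in 328 cells with a CDX2 UMI and 32.7 CPM (27.1 to 39.1) in 734 cells without one. In 3CK they summed to 26.3 CPM (18.0 to 37.2) in 243 cells and 37.1 CPM (30.2 to 45.2) in 533. The intervals overlap in both libraries. A cell without a CDX2 UMI at this depth may still express the gene.

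Other regulators of gut position were mostly epithelial. Of 17 such factors 13 were counted, and 9 in CNT and 10 in 3CK were at least 2-fold lower in mesenchyme than in epithelium (14.3% and 15.3% of genes). In CNT 0 and in 3CK 2, GATA4 (1.12) and SOX17 (1.18), were higher (24.4% and 17.8% of genes). The medians were -4.07 and -3.71. CDX2 stood at 80.6 and 83.3 CPM in CNT and 3CK epithelium and at 28.7 and 35.7 CPM in mesenchyme. CDX1, its partner, stood at 14.9 and 13.4 CPM in epithelium against 0.662 and 0.987 CPM in mesenchyme. Factors of more anterior gut were also present in the epithelium: GATA4, a factor of the proximal intestine, stood at 43.7 and 25.0 CPM, and PDX1, a duodenal and pancreatic factor, at 13.9 and 6.42 CPM. GATA6, an endoderm factor, stood at 105 and 57.3 CPM. In 3CK epithelium 1 of 13 was higher than in CNT, SOX9 (1.23), and 2 were lower, ONECUT2 (-1.38) and PDX1 (-1.11), shares near the 7.93% of genes higher and 10.8% lower. In mesenchyme 1 of 8 was higher, SOX17 (1.59; 5.45% of genes), and 3 were lower, with ONECUT2 at -4.18 (14.5% of genes).

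Several partners of HOX proteins were lower in 3CK mesenchyme. Of 11 cofactors 5 were at least 2-fold lower than in CNT (14.5% of genes) and 0 higher (5.45%), among them MEIS2 at 170 CPM in CNT and 70.8 CPM after cytokines (-1.27), and MEIS1, PKNOX2 and PBX3 at -1.89, -1.81 and -1.46. In epithelium 3 of 9 were lower (10.8% of genes) and 0 higher (7.93%), among them MEIS1 at -1.35 and PBX3 at -1.32, while TGIF1, a relative of MEIS that acts as a repressor, had 0.96 (45.6 and 88.9 CPM). In CNT 6 of 10 cofactors and in 3CK 6 of 11 were at least 2-fold higher in mesenchyme than in epithelium (24.4% and 17.8% of genes), and 0 and 1, TGIF1 in 3CK (-1.13), were lower (14.3% and 15.3%). Of 25 Polycomb, trithorax and DNA methylation regulators 2 were lower and 0 higher in each class. Over all genes 10.8% were lower and 7.93% higher in epithelium, and 14.5% and 5.45% in mesenchyme. The lower ones were ASH2L (-1.56) and CBX2 (-1.09) in epithelium, and TET2 (-1.20) and KDM6A (-1.01) in mesenchyme. KMT2A, a trithorax activator of HOX genes, stood at 34.6 and 56.4 CPM in epithelium, KDM6A, which removes the Polycomb mark, at 54.0 and 67.0 CPM, and the Polycomb enzyme EZH2 at 6.52 and 10.7 CPM.

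Among 28 genes of retinoic acid, FGF and WNT signalling, 2 of 23 were higher and 5 lower in 3CK epithelium (7.93% and 10.8% of genes), and 3 of 24 each way in mesenchyme (5.45% and 14.5%). CRABP2, a retinoic acid binding protein, had 1.41 in epithelium (30.1 and 80.0 CPM), and the retinoic acid enzyme ALDH1A1 had -1.55 (94.5 and 32.3 CPM). DHRS3, which turns retinal back to retinol, stood at 71.5 and 71.4 CPM. FGFR2 had the lowest ratio, at 41.4 and 6.52 CPM (-2.67). In mesenchyme ALDH1A3 had 1.42 and FGFR3 -2.80, and ALDH1A2, the embryonic retinoic acid enzyme, stood at 78.0 and 78.3 CPM. Of the long RNAs of the HOX clusters, 7 of 7 counted were at least 2-fold higher in mesenchyme than in epithelium in both libraries (24.4% and 17.8% of genes). Any of them under 1 CPM in epithelium could not have been called lower. HOTAIRM1, from the HOXA cluster, stood at 18.7 and 21.8 CPM in mesenchyme and 4.48 and 3.59 CPM in epithelium. HOXB-AS3 stood at 20.5 and 37.0 CPM against 2.93 and 1.67 CPM. Between 3CK and CNT 1 of 4 was lower in epithelium (HOXA-AS2, -1.42; 10.8% of genes) and 1 of 10 in mesenchyme (HOXA10-AS, -1.36; 14.5% of genes). No source used here states whether the authors' counts used strand, so an antisense RNA and the HOX gene it overlaps may share reads.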

How the data were processed

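Both libraries were made with the 10x Genomics single-cell 3' v3.1 chemistry from about 8300 loaded cells each, per the labels' protocols. The deposited matrices hold the authors' raw UMI counts per gene and barcode, written by Cell Ranger 7.1.0 on GRCh38, per the file headers and the submitters' processing notes; no source used here gives the annotation, counting options or strand.

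Barcodes with at least 500 genes and at most 20% mitochondrial UMIs were kept. The highest Scrublet scores (scanpy 1.11.5) were removed at 0.8% per 1000 barcodes, 52 in CNT and 16 in 3CK. UMIs were summed per library and class and scaled to CPM. Exact Poisson intervals (levels), exact binomial (Clopper-Pearson) intervals (shares) and binomial-based intervals (ratios) at the 95% level cover counting error only. Against 0 UMIs a floor of 3 UMIs was used. Coordinates are from GENCODE on GRCh38.

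Members and gene lists were chosen with earlier results of these data known. Values are printed for members with a mean of at least 1 CPM over both arms in any comparison, with full statistics for the 3 highest in each class and the 3 largest and smallest ratios in each comparison; of other lists, the counts, and, for 3CK against CNT, the 2 highest members and the extreme ratios. CDX1, PDX1 and the further called list members named were chosen after their values were seen. Some genes that these rules would name are not reported here. Calculations were tested on simulated data. Alternatives were other barcode, doublet, class, depth and level limits, totals without the most abundant genes, TMM factors (edgeR 4.0.16) and equal weight per cell.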

Additional observations from a re-analysis of the deposited data

How the results depend on the processing

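No paired analysis was possible because each group is 1 library and the labels give no replicate numbers. Beside the main values, 15 other settings and 2 more chosen after seeing the data were run. Of the counts and shares, 133 stayed close and 31 moved; of the single-member values, 1205 stayed within their interval, 176 moved and 2 ratios of at least 2-fold changed sign. The 2 were HOXB6 (-0.49) and HOXB8 (-0.24), mesenchyme over epithelium in CNT, among epithelial cells under 100 TTR UMIs per 10000. Ratios short of 2-fold, counted above as moved or within their interval, changed sign 32 times, 25 of them where the counting interval held 0. The other 7 were HOXB6 (-0.83), 3CK over CNT, and HOXA3 (-1.04), mesenchyme over epithelium in CNT, with TTR under 100; HOXB2 (0.24), HOXB7 (0.08) and HOXC8 (0.42), 3CK over CNT in epithelium, with collagens under 2; and, with equal weight per cell, HOXB3 (0.15), 3CK over CNT in mesenchyme, and HOXA3 (-0.05), mesenchyme over epithelium in CNT. The cause of each change below was not tested unless the setting itself tests fewer members.

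For 3CK against CNT in epithelium (0 higher, 4 lower), the lower count was 2 with EPCAM 4 and collagens 10 per 10000, 0 with collagens under 2 (2 higher), 16 with TTR under 100, 7 with totals without mitochondrial, ribosomal and the 50 most abundant genes, 10 with equal weight per cell (1 higher), 0 at a mean of at least 10 CPM, where few members can be counted, and 17 with no filter on low values. In mesenchyme (1 higher, 0 lower), the lower count was 1 with EPCAM 1 and collagens 2.5, 1 without the abundant genes, 1 with equal weight (7 higher), 1 with cells chosen without collagens (3 higher) and 3 with no low filter; TMM factors gave 4 higher. For mesenchyme against epithelium, a mean of at least 10 CPM left 9 higher in CNT and 10 in 3CK, TTR under 100 gave 2 lower in CNT, and no low filter gave 1 lower in 3CK. TMM factors moved the median of all genes by 0.03, 0.18, -0.39 and -0.18 in the 4 comparisons, and the reduced totals by -0.12, -0.04, -0.10 and -0.01.

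The share of groups 9 to 13 in 3CK epithelium (17.7%) was 19.8% without doublet removal, 19.4% with EPCAM 1 and collagens 2.5 and 25.5% with equal weight. In CNT epithelium (29.5%) it was 24.8% with collagens under 2, 26.1% with TTR under 100 and 32.1% with equal weight. In CNT mesenchyme (39.2%) it was 37.8% with equal weight. In 3CK mesenchyme (33.2%) it was 34.8% with EPCAM 4 and collagens 10, 31.5% without collagens in the choice and 38.2% with equal weight, where it no longer lay below CNT mesenchyme. Summed over other members, cells with HOXB6 had 131 CPM in CNT with few collagen UMIs, against 171.

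With 1 library per group, no difference between CNT and 3CK can be set against the spread of cultures. The 124 3CK mesenchymal cells set the precision there: 3 UMIs are 0.329 CPM, against 0.0394 CPM in CNT epithelium. Fewer cells of a kind within a class and less RNA per cell cannot be told apart.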

Other observations

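Cells of neither class carried HOX RNA between the 2 classes. The 253 such CNT cells had 974 HOX UMIs, 162 CPM (152 to 173), and the 258 such 3CK cells had 3172, 251 CPM (242 to 260). HOXB7 led in both, at 26.1 and 33.9 CPM, with HOXB2 at 17.5 and 27.2 CPM. HOXB6 stood at 8.98 CPM (6.75 to 11.7) in CNT and 23.8 CPM (21.2 to 26.7) in 3CK, and HOXB13 at 3.83 and 3.80 CPM. EPCAM stood at 96.3 and 76.3 CPM and DCN at 251 and 217 CPM in these cells, between the levels of the 2 classes, though the rule itself caps EPCAM there. The 11 mesenchymal markers also lay between, at 3163 and 3235 CPM. The 10 epithelial markers did not: they summed to 11356 CPM in CNT, level with epithelium at 11351 CPM. In 3CK they summed to 9663 CPM, below both classes (21783 and 11714 CPM).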
